A study of Mus musculus with 25 samples.

Results

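Narrow H3K27me3 promoter peaks were taken from the 12 H3K27me3 peak lists of regenerating mouse myofibers as every called peak on chromosomes 1 to 19 that the deposited annotation placed in a promoter class and that spanned less than 3000 bp. This rule kept 15431 of 30979 autosomal H3K27me3 peaks, or 15431 of 55242 peaks of both marks in the series, and they were assigned to 3039 of the 5470 genes with any autosomal H3K27me3 peak. Another 167 autosomal promoter peaks spanned 3000 bp or more and were not members. Members were thus chosen by width, promoter class and chromosome, so the members' widths and classes set against other peaks are described without a test. The tests compare libraries of different genotypes, which the rule did not use. The nearest members inside the limit were at Gata6os (2994 bp), Lhx8 (2986 bp) and Sox21 (2983 bp), and the nearest peaks outside it were at Gm3764 (3003 bp), Neurog2 (3018 bp) and Sim1 (3021 bp).

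The myofibers came from the tibialis anterior muscle at 14 days after injury, in mice labelled wild-type, mfn2-/-, vhl-/- and HIF1dPA, with 3 H3K27me3 libraries for each genotype. All mice carried the mito-Dendra2 reporter, a fluorescent protein of mitochondria, switched on by the tamoxifen-inducible Pax7-Cre(ERT2) driver of muscle stem cells. They received tamoxifen at 75 mg/kg once a day for 5 days, and 2 days later 50 µL of 1.2% BaCl2 was injected into the muscle. Dendra2+ fibers, which descend from recombined stem cells, were then dissected. Mfn2 is a mitochondrial outer membrane protein that drives fusion. VHL recognises the transcription factor HIF1α for degradation, and HIF1dPA is a HIF1α with proline to alanine changes that VHL does not recognise. Because Cre acts in Pax7-expressing cells, nuclei of other cells that remained among the fibers keep their unrecombined alleles. In bulk chromatin, a mark present in fewer nuclei and less of the mark in each nucleus cannot be told apart.

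H3K27me3 is written by the EZH1 or EZH2 subunit of Polycomb repressive complex 2 and read by CBX proteins of Polycomb repressive complex 1. In differentiated tissues it covers the CpG-rich promoters of developmental regulators of other lineages, which stay silent there. It is removed by the demethylases KDM6A and KDM6B. In muscle, silent homeobox genes of other lineages are among its known targets.

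The sequences just upstream of the start are shown for 5 genes with a narrow promoter peak in all 12 libraries, and, as a contrast, for Acta1 (skeletal actin) and Ckm (muscle creatine kinase), highly expressed muscle genes that had no narrow promoter peak in any library. Each is the 250 bases before the annotated start, read 5′ to 3′ on the gene's strand from RefSeq (GRCm38.p6, the primary assembly of mm10), and every CG dinucleotide is in capitals.
Lhx4 (chr1:155742028-155742277, minus strand): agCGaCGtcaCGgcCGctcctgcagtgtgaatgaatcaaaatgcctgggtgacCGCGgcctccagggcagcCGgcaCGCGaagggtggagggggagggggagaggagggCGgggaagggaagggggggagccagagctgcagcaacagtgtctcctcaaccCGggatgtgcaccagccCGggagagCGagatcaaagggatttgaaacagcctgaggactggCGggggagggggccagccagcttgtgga
Otp (chr13:94875386-94875635, plus strand): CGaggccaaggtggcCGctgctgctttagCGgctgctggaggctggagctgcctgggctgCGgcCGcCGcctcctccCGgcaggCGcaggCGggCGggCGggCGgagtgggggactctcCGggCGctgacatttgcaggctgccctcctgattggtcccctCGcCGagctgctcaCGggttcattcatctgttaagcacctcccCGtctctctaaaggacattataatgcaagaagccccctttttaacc
Mab21l2 (chr3:86548284-86548533, minus strand): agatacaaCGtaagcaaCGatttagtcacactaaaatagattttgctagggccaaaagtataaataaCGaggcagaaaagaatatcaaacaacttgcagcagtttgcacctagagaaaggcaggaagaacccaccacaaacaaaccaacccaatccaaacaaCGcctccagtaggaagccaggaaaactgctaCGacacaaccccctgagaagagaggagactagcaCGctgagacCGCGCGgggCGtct
Hoxd13 (chr2:74667975-74668224, plus strand): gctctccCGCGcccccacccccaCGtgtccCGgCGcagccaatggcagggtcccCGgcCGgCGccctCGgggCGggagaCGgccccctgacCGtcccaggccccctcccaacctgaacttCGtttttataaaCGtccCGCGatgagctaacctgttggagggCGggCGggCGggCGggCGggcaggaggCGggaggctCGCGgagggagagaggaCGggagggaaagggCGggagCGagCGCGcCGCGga
Pax6 (chr2:105668646-105668895, plus strand): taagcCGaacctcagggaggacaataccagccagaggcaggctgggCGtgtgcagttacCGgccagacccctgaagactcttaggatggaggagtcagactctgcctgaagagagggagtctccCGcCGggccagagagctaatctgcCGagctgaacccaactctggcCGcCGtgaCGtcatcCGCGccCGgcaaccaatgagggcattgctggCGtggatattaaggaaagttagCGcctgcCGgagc
Acta1 (chr8:123894776-123895025, minus strand): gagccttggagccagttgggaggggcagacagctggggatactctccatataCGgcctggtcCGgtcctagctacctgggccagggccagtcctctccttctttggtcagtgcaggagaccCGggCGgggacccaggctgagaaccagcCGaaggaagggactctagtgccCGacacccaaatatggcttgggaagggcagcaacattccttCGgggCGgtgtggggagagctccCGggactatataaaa
Ckm (chr7:19410844-19411093, plus strand): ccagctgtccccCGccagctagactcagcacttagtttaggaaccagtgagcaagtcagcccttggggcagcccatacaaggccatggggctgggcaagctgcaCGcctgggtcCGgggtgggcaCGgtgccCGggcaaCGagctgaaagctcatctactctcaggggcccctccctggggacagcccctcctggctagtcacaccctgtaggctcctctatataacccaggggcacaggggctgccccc
These windows held 31 CG dinucleotides at Hoxd13, 18 at Otp, 15 at Pax6, 14 at Lhx4 and 10 at Mab21l2, against 9 at Acta1 and 6 at Ckm. Of 31396 autosomal RefSeq windows of the same length, 38.3% held at least 10 CG (the motif reads the same on both strands), with a median of 6. A comparison of CG content over all member genes was void, since fewer than 80% of them had a sequence in the table. The called peaks mostly lay beside these windows and not over them. Overlap of a printed window with a narrow promoter peak was counted whichever gene the peak was assigned to. It was found in 6 libraries at Otp, 4 at Lhx4 and at Pax6, and 1 at Mab21l2 and at Hoxd13, of 12 each. None of the overlapping peaks at Pax6 was assigned to Pax6, whose own narrow promoter peaks began at chr2:105670456 or beyond. Pax6 has 2 listed starts, and only the window of the first is printed and compared here. No H3K27me3 peak of any class overlapped the windows of Acta1 and Ckm.

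The number of narrow promoter peaks differed between genotypes. The 3 wild-type libraries held 1851, 1654 and 1696 (1734 ± 104, SD, n = 3). The mfn2-/- libraries held 1262, 1212 and 1343 (1272 ± 66.1), the vhl-/- libraries 2018, 2004 and 1826 (1949 ± 107), and the HIF1dPA libraries 176, 207 and 182 (188 ± 16.4). All mfn2-/- and HIF1dPA libraries lay below all wild-type libraries, whereas vhl-/- replicate 3 lay below wild-type replicate 1. The mean ratio to wild-type was 0.734 across mfn2-/- libraries, 1.12 across those of vhl-/- and 0.109 in HIF1dPA. The numbers differed among the 4 genotypes (exact permutation test over libraries on log2 numbers, p = 0.00013, Benjamini-Hochberg adjusted p = 0.000779 over 6 tests). Wild-type against all 9 mutant libraries, which pools genotypes above and below it, did not pass (exact permutation p = 0.218, adjusted 0.327). For 1 genotype against wild-type, 3 against 3 libraries allow no two-sided exact p below 0.1, which mfn2-/- and HIF1dPA reached and vhl-/- did not (0.2). The 3 comparisons share the wild-type libraries. The total of autosomal H3K27me3 peaks moved with these numbers, at 3541 ± 192, 2457 ± 116, 3841 ± 200 and 488 ± 11.9 in the same order. Sequencing depth is unknown from the lists, and its part in the numbers was not tested.

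Relative to its own list, the narrow promoter class was smaller in HIF1dPA. It made up 49.2%, 48.2% and 49.5% of autosomal peaks in wild-type, 51.4%, 51.8% and 52.2% across mfn2-/- libraries, and 52.1%, 49.8% and 50.4% in vhl-/-. In HIF1dPA it made up 37.1%, 42.0% and 36.7%. Every library of mfn2-/- and vhl-/- lay above every wild-type library and every HIF1dPA library below, with mean differences of 2.82, 1.81 and -10.3 percentage points. The share differed among genotypes (exact permutation p = 0.000325, adjusted 0.000974). With only the 474 strongest autosomal peaks of each list, as many as the shortest list holds, the difference from wild-type was -20.6 points for HIF1dPA (exact permutation p = 0.1), 1.55 points for mfn2-/- (p = 0.3) and 0.0703 points for vhl-/- (p = 1), so the separation of mfn2-/- and vhl-/- from wild-type was not seen there. Those 474 were nearly the whole HIF1dPA list (474 to 496 peaks) but a small part of a wild-type list (3427 to 3763). At a common score of 100 or more, the differences were -6.07 points for HIF1dPA, 1.51 for mfn2-/- and 0.0654 for vhl-/-.

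**Figure D1:**
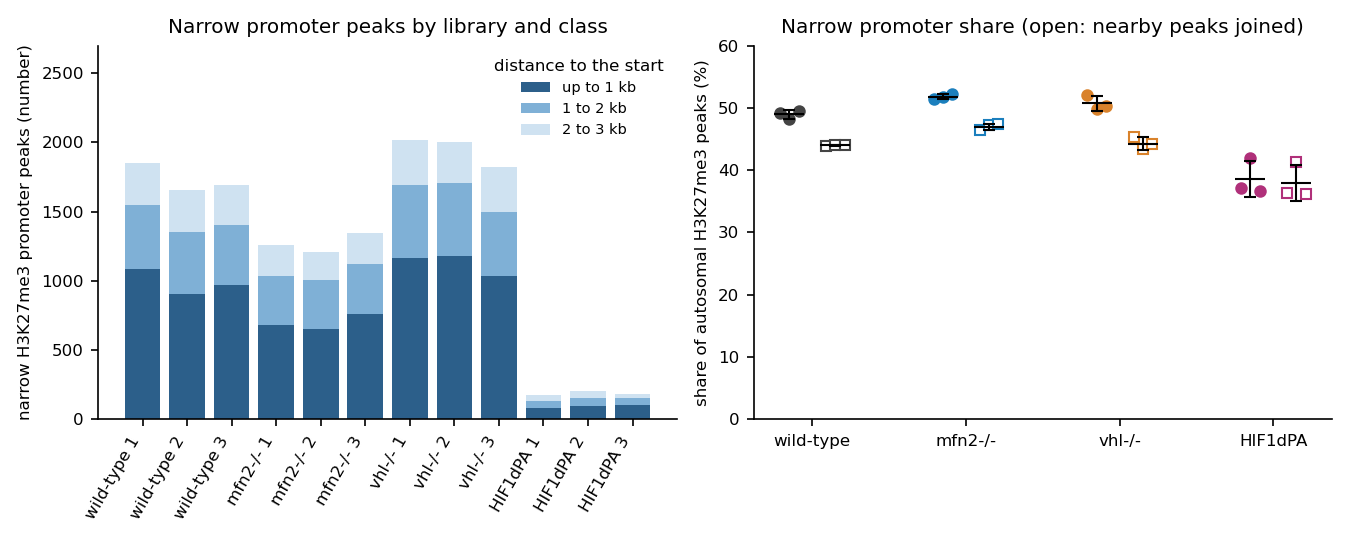
Left, narrow H3K27me3 promoter peaks in each of the 12 libraries (number), stacked by the annotated distance class to the gene start. Right, their share of autosomal H3K27me3 peaks (%), with filled points for the peaks as listed and open squares after peaks within 1000 bp of each other were joined, and bars giving mean ± SD of 3 libraries. HIF1dPA libraries held 176 to 207 such peaks, below all others, and a share of 36.7 to 42.0%.

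Most members lay close to a start. The class up to 1 kb held 8729 members, that from 1 to 2 kb 4062 and that from 2 to 3 kb 2640. The innermost class took 58.8%, 54.5% and 57.3% of members in wild-type, 54.2%, 53.8% and 56.9% across mfn2-/- libraries, 57.6%, 59.0% and 56.8% across those of vhl-/- and 47.7%, 46.9% and 56.0% in HIF1dPA. The ranges of HIF1dPA and wild-type overlapped through HIF1dPA replicate 3. Among the 4 genotypes this share did not pass (exact permutation p = 0.0593, adjusted 0.119), although it did with peaks of score 100 or more (unadjusted p = 0.00234), with the 474 strongest peaks of each list (unadjusted p = 0.00377) and without HIF1dPA replicate 3 (unadjusted p = 0.00344). The wild-type comparison with all mutants gave an exact permutation p of 0.364 (adjusted 0.436) at -2.54 points.

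Of the 14377 members (93.2%) whose gene had a RefSeq span on the same chromosome, 66.1% had their centre inside the gene and the others outside it. That share was 66.4% ± 0.918 in wild-type, 66.3% ± 1.64 across mfn2-/- libraries, 65.6% ± 0.894 across those of vhl-/- and 68.4% ± 0.83 in HIF1dPA (SD, n = 3). These ranges overlapped between wild-type, mfn2-/- and vhl-/-, and the lowest HIF1dPA library (67.5%) was near the highest wild-type library (67.4%).

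The members were short and of middle rank. Their median width was 816 bp and 67.4% spanned less than 1000 bp, with medians of 820 bp in wild-type, 780 bp across mfn2-/- libraries, 862 bp across those of vhl-/- and 642 bp in HIF1dPA. The score of a peak is 10 times the −log10 p of the peak caller, with 50 as the lowest listed value, and grows with depth as well as with enrichment. It is therefore given here as a percentile, the share of autosomal H3K27me3 peaks in the same library that rank at or below the peak. The median percentile of the members lay between 55.1 and 59.3 in the 12 libraries, against 41.5 to 46.4 for peaks outside promoters and 96.0 to 100 for the wider promoter peaks. Scores of 100 or more were reached by 22.4%, 19.3% and 19.8% of members in wild-type and by 4.55%, 6.76% and 6.04% in HIF1dPA.

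Several narrow peaks often lay at 1 gene. A single narrow promoter peak was present in 69.6% of the 10314 pairs of a gene and a library, and 180 pairs held 5 or more. Galnt2l reached 13 in vhl-/- replicates 1 and 3, and Pax6, the eye and brain master regulator, held 9, 5 and 10 in wild-type, 8, 5 and 9 across mfn2-/- libraries, 8, 9 and 10 across those of vhl-/- and 2, 2 and 1 in HIF1dPA. Genes with at least 2 narrow peaks made up 29.6 to 30.8% of genes in the wild-type libraries and 8.42 to 9.64% in HIF1dPA. Joining all peaks less than 1000 bp apart removed 25.9% ± 1.73 of the members in wild-type, 27.4% ± 0.135 across mfn2-/- libraries, 31.0% ± 1.1 across those of vhl-/- and 4.36% ± 1.53 in HIF1dPA, and promoter peaks of 3000 bp or more then numbered 87 to 124, 80 to 97, 158 to 184 and 2 to 3. After joining, the share of narrow promoter peaks was 44.0% ± 0.0686, 47.0% ± 0.503, 44.3% ± 0.981 and 37.9% ± 2.88 in the same order.

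Few genes recurred across the libraries. Of the 3039 genes, 1161 (38.2%) had a narrow promoter peak in 1 library only, and 337 of these had another kind of H3K27me3 peak in some other library. At least 6 libraries held 669 genes (22.0%), and all 12 held 12 genes. In all 3 libraries of a genotype the peak was found at 463 genes in wild-type, 355 across mfn2-/- libraries, 534 across those of vhl-/- and 17 in HIF1dPA. Wild-type and vhl-/- shared 286 of these genes (61.8% of the wild-type and 53.6% of the vhl-/- set), and wild-type and mfn2-/- shared 231 (49.9% and 65.1%). With scores of 100 or more the count in at least 6 libraries was 152, and with the 474 strongest peaks of each list 146.

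The most recurrent genes were rich in developmental regulators. Developmental transcription factor genes, taken from 12 lists of homeobox, Pax, LIM, Forkhead, Sox, T-box, bHLH and zinc finger families (378 genes, 1.83% of autosomal protein-coding genes), made up 1.98% of genes seen in 1 library and 4.22% of those in 2 to 5. They made up 16.3% of genes in 6 to 8 libraries, 41.1% in 9 to 11 and 58.3% in 12. The median of the genes' mean percentile was 31.2, 45.6, 62.2, 78.9 and 87.0 in these 5 classes. Both values come from the same lists and are given as a description.

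**Figure D2:**
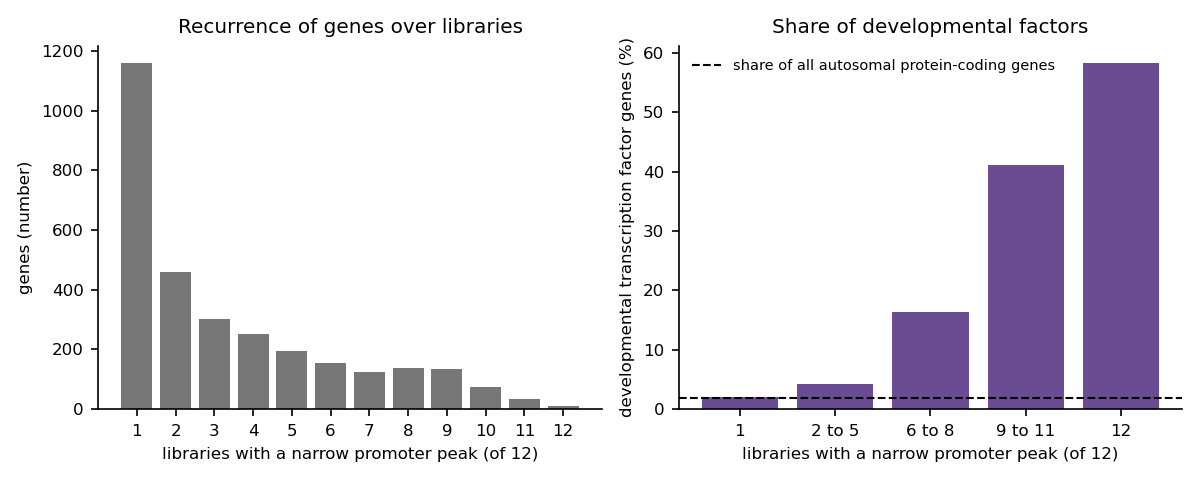
Left, genes (number) by the number of H3K27me3 libraries, of 12, with a narrow promoter peak. Right, the share of those genes (%) that belong to the developmental transcription factor lists, with a dashed line at their share of all autosomal protein-coding genes (1.83%); the share is 1.98% for genes of 1 library and 58.3% for genes of all 12.

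Among the 12 genes present in every library were 7 developmental transcription factors, including Lhx4, Otp, Hoxd13, Gata4, Pax6 and Prdm6. Lhx4, a LIM homeodomain factor of pituitary and motor neurons, stood at percentiles of 93.8, 93.7 and 95.4 in wild-type, 85.7, 99.2 and 98.3 across mfn2-/- libraries, 98.8, 96.4 and 98.9 across those of vhl-/- and 89.9, 69.6 and 98.8 in HIF1dPA. Its peaks were high in every library but HIF1dPA replicate 2. Otp, a homeodomain factor of hypothalamic neurons, stood at 97.4, 98.7 and 93.7 in wild-type, 98.6, 98.9 and 96.8 across mfn2-/- libraries, 87.3, 73.0 and 93.3 across those of vhl-/- and 94.3, 72.8 and 83.9 in HIF1dPA. All 3 vhl-/- values lay below all wild-type values, an order picked out on reading the 12 genes and not tested. Hoxd13, which patterns digits, stood at 94.4, 81.9 and 98.3 in wild-type, 98.3, 89.5 and 91.5 across mfn2-/- libraries, 86.5, 99.6 and 98.8 across those of vhl-/- and 42.6, 66.7 and 97.4 in HIF1dPA, with the HIF1dPA libraries spread widest.

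Gata4, a factor of heart and endoderm, stood at 97.5, 98.3 and 93.3 in wild-type, 98.5, 98.7 and 94.6 across mfn2-/- libraries, 97.1, 96.8 and 98.6 across those of vhl-/- and 77.6, 17.5 and 71.3 in HIF1dPA. Pax6 stood at 97.2, 94.6 and 98.0 in wild-type, 97.6, 94.4 and 96.5 across mfn2-/- libraries, 97.5, 86.2 and 99.1 across those of vhl-/- and 29.2, 76.5 and 29.7 in HIF1dPA. At both genes the HIF1dPA libraries lay below all others, within their own shorter list, which was likewise not tested.

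Mab21l2, a gene of eye development, stood at 96.8, 96.9 and 98.9 in wild-type, 75.0, 92.0 and 89.2 across mfn2-/- libraries, 97.4, 96.0 and 98.0 across those of vhl-/- and 97.3, 35.3 and 89.9 in HIF1dPA. All 3 mfn2-/- values lay below all wild-type values, an order also picked out on reading the recurrent genes and not tested. Lamp5, a membrane protein of certain neurons, recurred with weak peaks, at 33.8 to 67.7 in wild-type, 22.7 to 77.7 across mfn2-/- libraries, 44.1 to 64.5 across those of vhl-/- and 9.3 to 42.1 in HIF1dPA. Dock3, a guanine nucleotide exchange factor of neurons, ranged from 83.1 to 98.9 outside HIF1dPA and from 25.6 to 82.3 in it.

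Not all recurrent loci were protein-coding genes. Of the 45 genes in 11 or 12 libraries, 35 were protein-coding in RefSeq, and the others were mostly predicted or antisense transcripts. For these, the median centre of the narrow promoter peaks was set against the nearest protein-coding gene span, whatever the position of the transcript. The peak centre of Sox1ot (11 libraries) lay 8.54 kb from Sox1, a neural factor itself present in 10. That of Nkx2-2os (11 libraries) lay inside the span of Nkx2-2, which was itself present in 5. That of Dlx1as (11) lay inside the span of Dlx1, to which no narrow promoter peak was assigned. The peak centres of Gm26803 (12) and C130071C03Rik (11) lay 59.4 and 66.9 kb from Mef2c, a myogenic factor gene with a narrow promoter peak in 0 libraries. The deposited annotation gives each peak 1 gene, so a peak between 2 starts counts for only 1 of them.

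**Figure D3:**
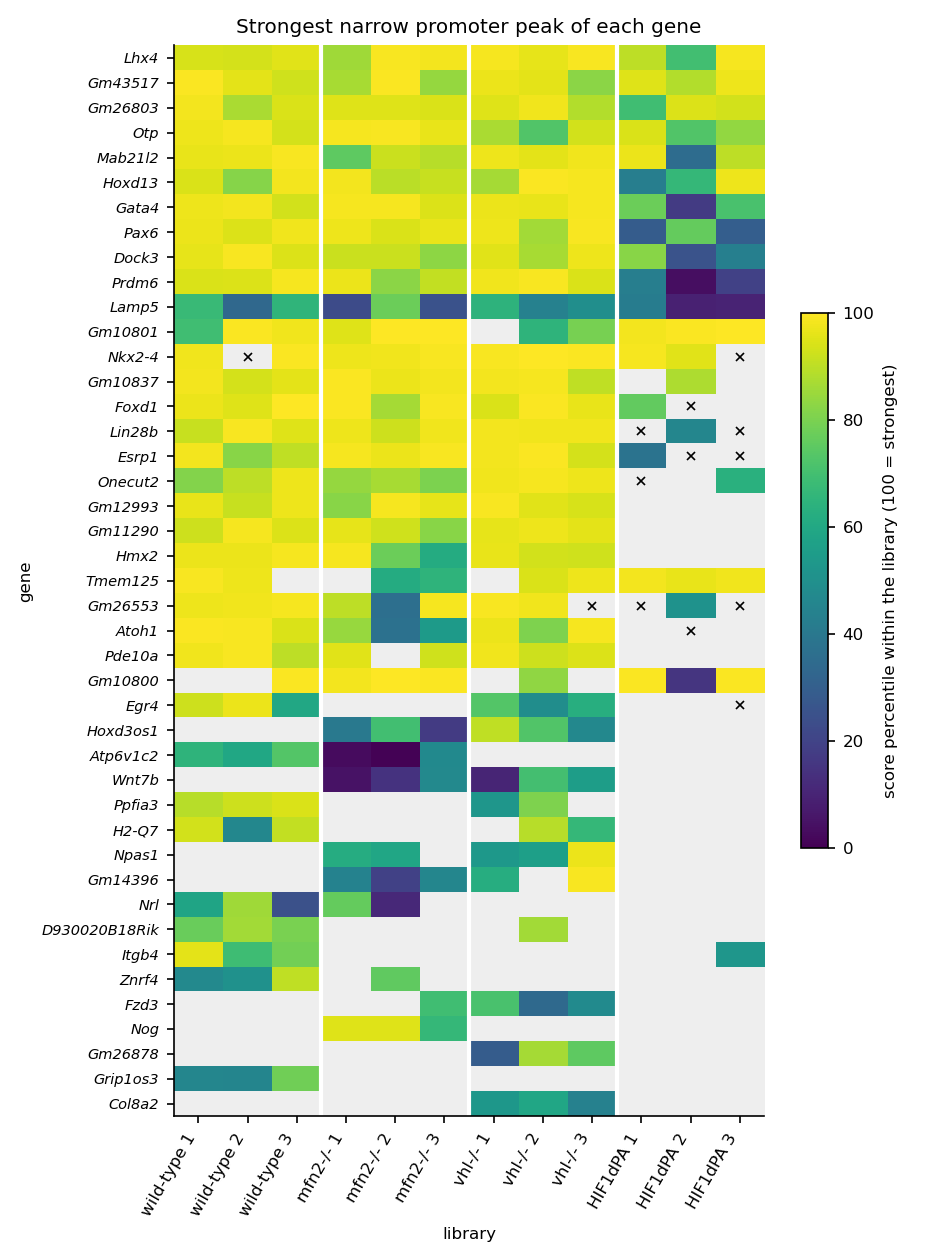
Score percentile within the library (colour, 100 for the strongest autosomal H3K27me3 peak) of each gene's strongest narrow promoter peak in the 12 libraries, for most of the named genes, taken from the most recurrent genes, the strongest genes of each genotype and the genes separated between a mutant and wild-type. Grey cells have no narrow promoter peak, and a cross marks a gene with another H3K27me3 peak there; the genes at the top, from Lhx4 to Lamp5, are filled in every library.

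By family, LIM homeobox genes had the fullest coverage, with all 12 in at least 6 libraries. An average of 11.3 ± 0.577 of them carried a narrow promoter peak per wild-type library, 10.3 ± 2.08 across mfn2-/- libraries, 12.0 ± 0 across those of vhl-/- and 4.33 ± 1.53 in HIF1dPA. Lhx8, a factor of forebrain cholinergic neurons, was present in 11 libraries and Isl1, a factor of motor neurons and heart progenitors, in 10. Dlx, Msx and Gsx genes followed, with 9 of 11 in at least 6 libraries, led by Dlx2 (11 libraries), Dlx3 (10) and Msx2 (9). Among Nkx genes 9 of 14 reached 6 libraries, led by Nkx3-2 (11), Nkx2-4 (10) and Nkx6-1 (10), and among Pax genes 6 of 9, led by Pax6 (12), Pax2 (10) and Pax5 (9).

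Hox cluster genes, which set position along the body axis, reached 6 libraries in 13 of 39. Each wild-type library held 14, mfn2-/- libraries 14.7 ± 1.15, vhl-/- libraries 13.7 ± 1.53 and HIF1dPA libraries 2.67 ± 0.577. Hoxc13 and Hoxd12, posterior members of their clusters, were each present in 10 libraries. Sine oculis homeobox and Eya genes, which act together in eye, ear and muscle development, reached 6 libraries in 3 of 10 (Six6 in 11, Eya2 in 8, Six3 in 7). Per library they numbered 2.33 ± 0.577 in wild-type, 3.0 ± 0 for mfn2-/-, 4.0 ± 0 for vhl-/- and 1.0 ± 0 for HIF1dPA, beside 885 to 985 of all protein-coding genes in wild-type and 931 to 1051 in vhl-/-.

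Sox genes reached 6 libraries in 5 of 18 (Sox11 in 11, Sox1 in 10, Sox14 in 9), T-box genes in 6 of 16 (Tbx20 and Tbx18 in 11, Tbr1 in 9), Forkhead genes in 14 of 41 (Foxd1, Foxa1 and Foxl2 in 10) and bHLH genes in 22 of 57 (Nhlh2 and Tcf24 in 11, Neurog2 in 10). The Gata, Zic, Sall, Gli and Prdm list reached it in 24 of 69, with Insm1, a zinc finger factor of neuroendocrine cells, in 11. The other homeobox genes reached it in 51 of 82, with Otp in 12 and Otx2 in 11. Over all autosomal protein-coding genes, 519 of 20665 (2.51%) reached 6 libraries and 2391 (11.6%) had a narrow promoter peak in at least 1.

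The number of developmental factor genes per library overlapped between wild-type and mfn2-/-, while the number of all genes did not. Wild-type libraries held 174 to 179 such factors among 1128 to 1251 genes, mfn2-/- libraries 168 to 175 among 779 to 897, vhl-/- libraries 179 to 197 among 1172 to 1312 and HIF1dPA libraries 43 to 48 among 160 to 190. As a share of genes this was 15.1% ± 1.02 in wild-type, 20.4% ± 1.34 across mfn2-/- libraries, 14.9% ± 0.414 across those of vhl-/- and 26.0% ± 0.812 in HIF1dPA (SD, n = 3). The shares of mfn2-/- and HIF1dPA did not overlap that of wild-type. The order depended on how many peaks were read. With the 176 strongest members of each library, the length of the shortest list, the share was 34.5% ± 1.97 in wild-type, 41.6% ± 1.54 across mfn2-/- libraries, 37.8% ± 2.54 across those of vhl-/- and 25.2% ± 2.33 in HIF1dPA, now lowest in HIF1dPA and still without overlap between mfn2-/- and wild-type. With the 1212 strongest members it was 18.6% ± 0.971, 21.0% ± 0.909 and 19.4% ± 1.13 in wild-type, mfn2-/- and vhl-/-. These shares are descriptions, chosen after the values were seen.

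**Figure D4:**
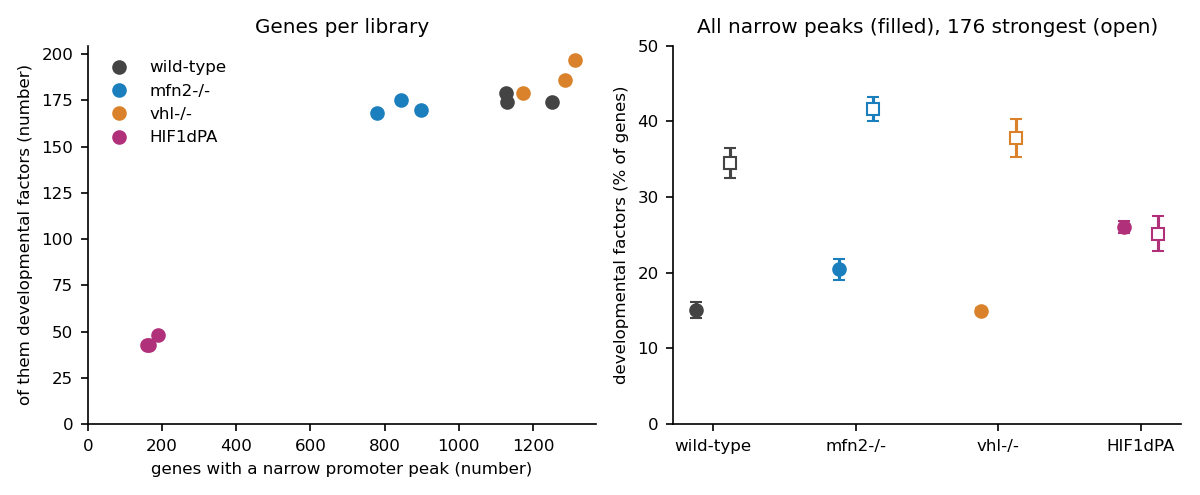
Left, developmental transcription factor genes (number) against all genes with a narrow promoter peak (number), 1 point for each library. Right, the factor share of genes (%), mean ± SD of 3 libraries, from all members (filled) and from the 176 strongest members of each library (open); HIF1dPA is highest in the first (26.0%) and lowest in the second (25.2%).

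Genes of secreted signals and of neuronal excitability also carried narrow promoter peaks. The list of Wnt ligands and antagonists, which also holds Fzd receptor and Rspo genes, reached 6 libraries in 9 of 43. These genes were led by the antagonist Wif1 (11 libraries), with Wnt2b in 7 and Wnt1 in 6. A vhl-/- library held 16.7 ± 1.53 of them, a wild-type library 10.7 ± 3.06, an mfn2-/- library 8.0 ± 1.73 and a HIF1dPA library 1.33 ± 1.15, and the vhl-/- range of 15 to 18 lay above the wild-type range of 8 to 14. For all autosomal protein-coding genes the ranges of these genotypes overlapped (931 to 1051 and 885 to 985). FGF, BMP, GDF, TGFb and hedgehog ligands reached 6 libraries in 9 of 54 (Fgf20 in 9, Ihh and Fgf8 in 8) and did not separate wild-type from mfn2-/- or vhl-/-.

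Neurotransmitter receptor genes numbered 17.7 ± 2.08 in wild-type, 9.67 ± 3.06 across mfn2-/- libraries, 21.0 ± 4.0 across those of vhl-/- and 2.0 ± 1.0 in HIF1dPA. The wild-type range of 16 to 20 lay above the mfn2-/- range of 7 to 13. In all 3 libraries of the genotype, 6 receptor genes were present in wild-type and 0 in mfn2-/-. The same count was 3 and 3 for potassium channel genes and 360 and 264 for all autosomal protein-coding genes. Among the most recurrent were Adra2a and Adrb1, adrenergic receptors, and Chrna5, a nicotinic receptor subunit, in 8 libraries each. Potassium channel genes numbered 18.3 ± 2.08 in wild-type, 11.3 ± 3.21 across mfn2-/- libraries, 19.3 ± 2.31 across those of vhl-/- and 2.33 ± 1.15 in HIF1dPA, again without overlap between wild-type (16 to 20) and mfn2-/- (9 to 15). Kcnh3 was present in 9 libraries, Kcnk13 in 8 and Kcng3 in 7. Over all autosomal protein-coding genes the same counts were 924 ± 53.5, 659 ± 48.3, 1003 ± 63.7 and 134 ± 10.6, so these differences stand beside a difference in the whole.

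Contractile genes of muscle had few narrow promoter peaks, beside 11.6% of all autosomal protein-coding genes with one in at least 1 library. Of 48 contractile and sarcoplasmic genes, 2 (4.17%) had one in any library, Myh8 (7 libraries) and Jph1 (1). Of 22 myogenic regulators 4 (18.2%) did, including Pax3 (6 libraries), Lbx1 (2) and Pax7 (1). Myod1 and Myog had no H3K27me3 peak of any kind. The 17 genes of mitochondrial fusion, fission and biogenesis and the 18 housekeeping genes had 0, and of 29 HIF pathway genes 3 (10.3%) did (Car12 and Nfatc2 in 2 libraries, Kdm3a in 1). Hif1a, Mfn2 and Vhl had no H3K27me3 peak of any class. At Myh8, the neonatal myosin heavy chain, the count reflects the width limit, since 7 libraries held a promoter peak of 3000 bp or more there. In wild-type replicate 2, mfn2-/- replicate 2 and all 3 HIF1dPA libraries that peak (3060 to 3354 bp) came without a narrow one.

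Markers of other cell types were present in part, again beside 11.6% of all autosomal protein-coding genes. Narrow promoter peaks were assigned to 5 of 16 endothelial markers (31.2%, Erg in 10 libraries, Sox17 in 9, Flt1 in 7), 3 of 14 fibro-adipogenic and fibroblast markers (21.4%, Tcf21 in 9, Pdgfra in 8, Osr1 in 2), 8 of 13 Schwann and neuronal markers (61.5%, Nefm, Elavl3 and Syt1 in 6), 1 of 8 adipocyte markers (12.5%, Pparg in 1) and 0 of 16 immune markers. Per library the neuronal markers numbered 4.0 ± 1.0 in wild-type, 2.33 ± 0.577 across mfn2-/- libraries, 5.33 ± 0.577 across those of vhl-/- and 0 in HIF1dPA. The peak lists measure no expression and give no share of other cells, whose part in the results was not tested. Of 25 Polycomb and H3K27 demethylase genes, 6 (24%) had a narrow promoter peak, led by Epop (8 libraries), Cbx2 and Cbx8 (7 each). Clustered protocadherins (1 of 58) and olfactory receptors (33 of 1112, Olfr63 in 5) had few, and no gene of either list reached 6 libraries.

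**Figure D5:**
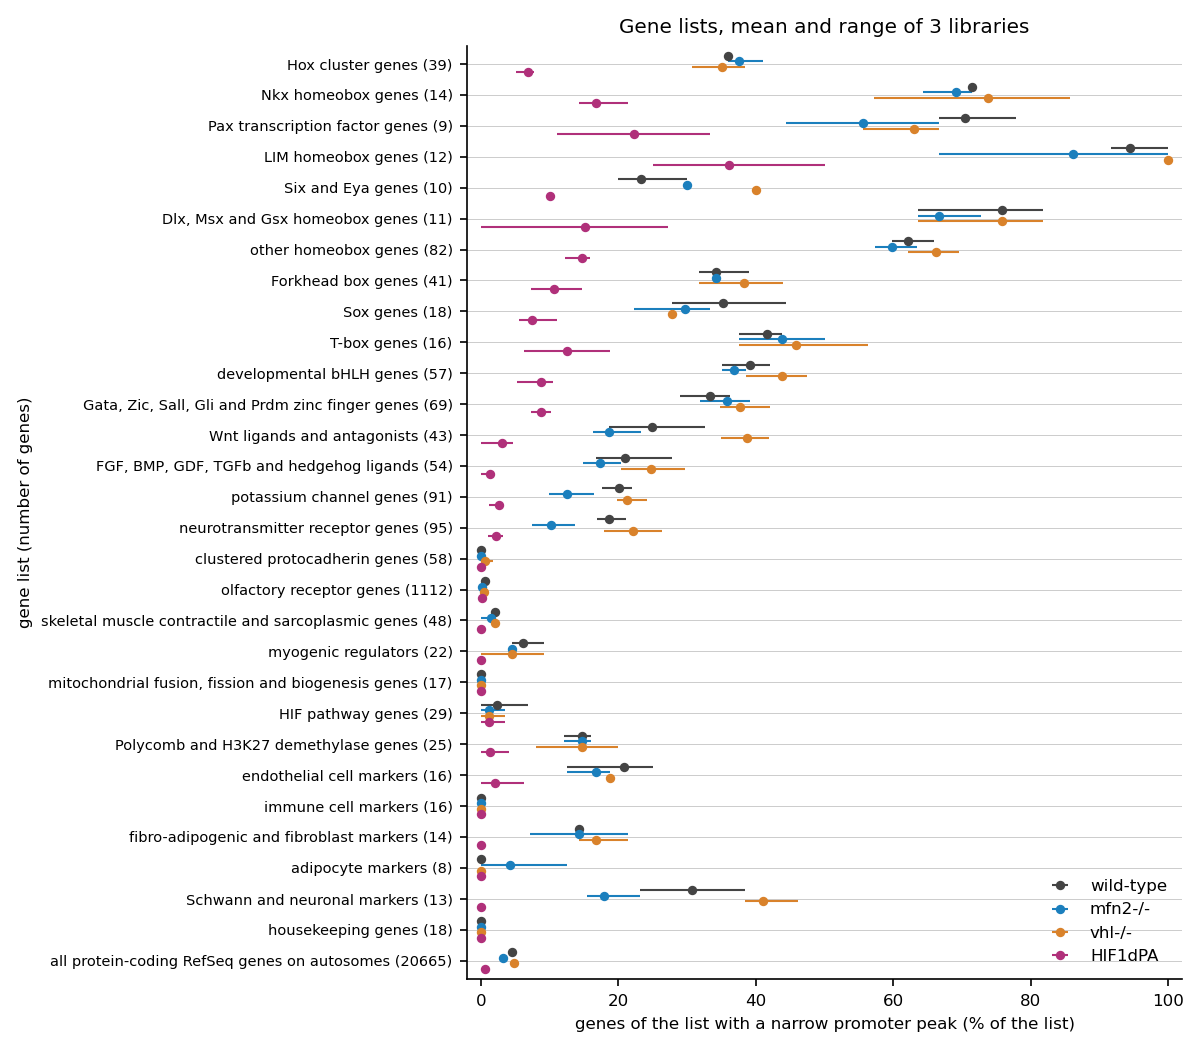
Share of each gene list (%) with a narrow promoter peak, by genotype, as the mean of 3 libraries with the lowest and highest library as the bar; the number of genes in each list is in parentheses. LIM homeobox genes reach 11 to 12 of 12 genes in wild-type libraries, and the immune, mitochondrial and housekeeping lists stay at 0 in all 12 libraries.

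Genes separated between wild-type and mfn2-/- were mostly those missing in the mutant. A narrow promoter peak was present in all 3 wild-type libraries and in none of mfn2-/- at 59 genes, of which 45 had no H3K27me3 peak of any class in mfn2-/-. The reverse held for 4 genes, all 4 without any wild-type peak. With peaks of any class, the first direction held 2.17% of the 4239 genes with a peak in either genotype, and the reverse 0.212%. Under that same rule it was 3.04% and 0.287% of the 2437 member genes. The 59 and 45 genes counted here were 2.42% and 1.85% of the member genes, and the 4 genes 0.164%. Egr4, an immediate early factor, stood at percentiles of 92.2, 96.9 and 60.2 in wild-type and was present in all 3 vhl-/- libraries but in no mfn2-/- library. Ppfia3, a presynaptic scaffold gene, stood at 89.1, 92.5 and 94.4 and Itgb4, an integrin of epithelial hemidesmosomes, at 96.0, 69.0 and 78.6. In the reverse direction, Nog, which encodes the BMP antagonist noggin, stood at 95.0, 95.1 and 66.5 in mfn2-/- and had no H3K27me3 peak in any library of another genotype. The others were Wnt7b (4.9, 14.7 and 46.9), Hoxd3os1 (40.3, 69.9 and 17.3) and Gm14396.

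The 45 genes were weaker than the others found in all 3 wild-type libraries. Their median percentile was 57.5 against 76.0 for the 418 other genes, they had a median of 1 narrow peak per library against 1.67, and 8.89% against 29.9% were developmental factors. With scores of 100 or more the count of 59 became 8, and with the 474 strongest peaks of each list 4. Leaving out wild-type replicates 1, 2 and 3 in turn gave 100, 125 and 127 genes in this direction, since fewer libraries were then required, and leaving out any of the 6 libraries gave 11 to 26 in the reverse.

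Between wild-type and vhl-/- the separation was small in both directions. The peak was present in all wild-type libraries and in no vhl-/- library at 16 genes (11 without any vhl-/- peak) and the reverse held at 27 (16 without any wild-type peak). The background with peaks of any class was 0.532% and 0.788% of 4698 genes. Under that rule it was 0.659% and 0.951% of the 2733 member genes, so these shares were close to the background. The 16 and 27 genes were 0.585% and 0.988% of the member genes, and those without any peak 0.402% and 0.585%. Npas1, a neuronal bHLH-PAS factor, stood at 53.3, 56.6 and 96.9 in vhl-/-, Fzd3, a Wnt receptor, at 71.4, 34.2 and 48.0, and Col8a2, a basement membrane collagen, at 52.8, 59.2 and 44.0. Wnt7b and Hoxd3os1 were found in all 3 libraries of both vhl-/- and mfn2-/- and in no wild-type library. In the other direction were Itgb4 and Atp6v1c2, a proton pump subunit, which stood at 65.2, 59.5 and 73.4 in wild-type. With the 474 strongest peaks the counts were 1 and 7, and leaving out 1 of the 6 libraries gave 23 to 48 and 49 to 74.

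HIF1dPA lacked 276 of the 463 genes found in all wild-type libraries, 220 of them without any HIF1dPA H3K27me3 peak. Of the 17 genes found in all 3 HIF1dPA libraries, wild-type lacked 0. The HIF1dPA lists were short, at 160 to 190 genes per library against 1128 to 1251 in wild-type, which limits both counts. How much of the separation came from list length was not tested. With peaks of any class, 10.1% of 3827 genes were separated in the first direction and 0.0261% in the reverse. Under that same rule it was 15.6% and 0% of the 2152 member genes. The 276 and 220 genes were 12.8% and 10.2% of the member genes. Hmx2, a homeodomain factor of the inner ear, stood at 97.0, 97.0 and 98.7 in wild-type and was found in all 9 libraries outside HIF1dPA. Pde10a, a striatal phosphodiesterase, stood at 97.7, 99.2 and 90.1 in wild-type and was found in no HIF1dPA library. With only the 474 strongest peaks of each list the 276 became 24 and the 0 became 1, and leaving out wild-type replicates 2 and 3 in turn gave 443 and 431. Without wild-type replicate 3 the reverse direction held 1 gene.

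The genes with a narrow promoter peak in HIF1dPA were largely found in other genotypes too. Of 426 genes with such a peak in at least 1 HIF1dPA library, 360 had one in another genotype. Developmental factors were 93 of these 360 (25.8%) and 0 of the other 66. The 66 can be in at most 3 libraries by how they were drawn. Among all genes the factor share was 1.98% in 1 library and 4.22% in 2 to 5. Of the 184 genes in all 9 libraries of wild-type, mfn2-/- and vhl-/-, 106 (57.6%) were found in at least 1 HIF1dPA library. Those 106 had a median percentile of 85.1 in the 9 libraries and the other 78 a median of 81.8, with 49.1% and 41.0% developmental factors. In HIF1dPA itself 353 genes (82.9%) were found in 1 of 3 libraries only, against 52.1% in wild-type, 53.1% in mfn2-/- and 45.2% in vhl-/-.

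Besides the 12 genes present everywhere, 5 genes were found in all 3 HIF1dPA libraries, namely Gm10800, Gm10801, Wasf1, Foxl2 and Tmem125. Tmem125 stood at 98.3, 96.6 and 97.8 in HIF1dPA with peaks of 2193, 2273 and 2208 bp, against a median width of 642 bp for the genotype. It was also present in 2 libraries of each other genotype at 2039 to 2641 bp, always in the class from 2 to 3 kb. Foxl2, an ovarian factor, was present in 10 libraries.

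Gm10800 and Gm10801 are predicted genes side by side on chromosome 2, in a stretch that is known for high signal in many mouse ChIP experiments. Gm10801 stood at 98.1, 99.6 and 99.8 in HIF1dPA, 95.2, 100 and 99.8 across mfn2-/- libraries, 69.3, 99.4 and 97.9 in wild-type, and 64.9 and 79.5 in the 2 vhl-/- libraries that had it. Its highest score, 818 in mfn2-/- replicate 2, was the highest of any member. Both genes together gave 0 to 4 members per library, and without them the ratios of member numbers to wild-type were 0.733, 1.12 and 0.107 for mfn2-/-, vhl-/- and HIF1dPA. Why this stretch ranks high was not tested.

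Gene sets agreed only in part between libraries of 1 genotype. The share of genes common to a pair among the genes of either (the Jaccard index) averaged 0.375 within wild-type, 0.385 within mfn2-/-, 0.415 within vhl-/- and 0.116 within HIF1dPA. Between wild-type and vhl-/- libraries it averaged 0.388 (0.361 to 0.404), a range that spans the one within wild-type (0.364 to 0.384). Between wild-type and mfn2-/- libraries it averaged 0.346 (0.325 to 0.363), with all pairs just below those within wild-type. The mfn2-/- lists were shorter (779 to 897 genes against 1128 to 1251), which lowers the highest index a pair can reach. The part of list length was not tested. Across the shared genes, Spearman's rho of the percentiles averaged 0.335 within wild-type (602 to 660 genes) and 0.438 within vhl-/- (718 to 770 genes). These are across genes, which are not independent replicates. Overlap with H3K9me3 peaks of the same genotype was rare, at 0.0496 to 0.555% of members outside HIF1dPA and 2.27 to 3.38% in HIF1dPA, where it was 4 to 7 peaks in each library. For the other autosomal H3K27me3 peaks it was 0.418 to 1.06% and 2.35 to 4.20%.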

How the data were processed

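ChIP-seq for H3K27me3 in 12 libraries, 3 for each of 4 genotypes, was analysed from the peak lists deposited for each library. The authors called peaks per library and gave each a deposited score, 10 times the −log10 p of the peak caller, with a lowest value of 50, beside its mm10 coordinates, annotation class and gene. The submitters' processing notes name BWA 0.7.5, MACS and deepTools 3.5.0 and the build mm10. The settings and the read depth are not given in the sources used here, so no interval from counts could be formed. The figure legends of the study give separate mice as replicates.

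Peaks on chromosomes 1 to 19 with a promoter class and a width (end − start + 1) below 3000 bp were kept. Libraries were compared by exact two-sided permutation tests (Python 3.11.15, numpy 2.4.6, pandas 2.3.3), on log2 numbers and on shares, with Benjamini-Hochberg adjustment over 6 tests. The code was tested on simulated data. Genes, lists, widths and percentiles are described without tests. The members and lists were chosen with earlier results of these data known. Genes named are the 12 most recurrent, the 5 strongest of each genotype, up to 5 separated in each direction and comparison, up to 3 of each list, those nearest the width limit, and 8 genes of the study. Wasf1, Galnt2l and the genes named as neighbours were added after their values were seen. Gene symbols matched RefSeq (GRCm38.p6) for 93.6% of 3039 genes. Alternatives were a score of at least 100, the 474 strongest peaks, width limits of 2000 and 4000 bp, the class up to 1 kb, joining within 1000 bp, merged regions (overlap of at least 1 bp), a replicate block and leaving out each library. The replicate numbers are not stated to pair mice across genotypes. Some genes that this rule names are not reported here.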

Additional observations from a re-analysis of the deposited data

Results flagged for a closer look

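The number of narrow promoter peaks differed among the 3 mutant genotypes, which a test of the mutants alone picked out (exact permutation test over 9 libraries, p = 0.00357, the smallest it can give, adjusted 0.0107 over 3 tests). It was below wild-type in 6 of 6 mfn2-/- and HIF1dPA libraries, with means of 1272 and 188 against 1734, and 1949 in vhl-/-. The narrow promoter share of autosomal peaks differed among the same mutants (exact permutation p = 0.0107, adjusted 0.0161), at 51.8%, 50.8% and 38.6% in mfn2-/-, vhl-/- and HIF1dPA. The share in the class up to 1 kb did not pass (exact permutation p = 0.0786).

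Outside the autosomes, narrow H3K27me3 promoter peaks on the X chromosome, which enter no comparison above, averaged 177 in mfn2-/- (179, 165 and 186) against 10, 8 and 2 in wild-type. The vhl-/- and HIF1dPA libraries held 2 to 8. The labels give no sex, and its part was not tested.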

How the results depend on the processing

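Of 310 recomputed values, 264 stayed on the same side of their threshold or within 1.5 times their count. Part of this was fixed in advance. Permutation tests of 3 against 3 libraries allow no exact p below 0.1 (0.25 with the replicate block). Comparisons of 1 mutant with wild-type could therefore change only in direction. The share in the class up to 1 kb passed among the 4 genotypes at a score of at least 100 (p = 0.00234), with the 474 strongest peaks (p = 0.00377) and with the replicate block (p = 0.0278); leaving out 1 library gave exact permutation p from 0.00344 to 0.138, and for vhl-/- a difference from -0.209 to 1.91 points, reversed without wild-type replicate 2. The block changed no other call, and same-numbered libraries did not all deviate together: for the share up to 1 kb the pooled correlation was 0.0849, with 3 of 6 genotype pairs over 0.1 and a range from -0.845 to 0.999, and for the number it was -0.276. At a score of at least 100 and with the 474 strongest peaks, separated genes numbered 8 and 4 (wild-type, not mfn2-/-), 1 and 1 (wild-type, not vhl-/-), 10 and 7 (vhl-/-, not wild-type, 16 if no peak of any class was allowed) and 77 and 24 (wild-type, not HIF1dPA), and genes in at least 6 libraries to 152 and 146. HIF1dPA, not wild-type, gave 1 with the strongest peaks. Requiring fewer libraries raises separated counts by construction: 78 to 127, 11 to 26, 23 to 48, 49 to 74, 312 to 443 and 0 to 1 for both directions of mfn2-/-, vhl-/- and HIF1dPA against wild-type, wild-type side first. The developmental factor share moved to 34.5%, 41.6%, 37.8% and 25.2% with the 176 strongest members and to 18.6% (wild-type) and 19.4% (vhl-/-) with the 1212 strongest, alternatives added after the data were seen. Unknown depth limits every count of called peaks.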
